A study of Homo sapiens with 18 samples.

Results

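The nuclear pore and nuclear transport genes described here are a list of 40 genes, 26 for proteins built into the pore and 14 for receptors and for the Ran cycle that drives them. They were chosen by gene symbol, with the probe of highest mean signal for each symbol. All 37 genes with a probe had exactly 1, among 21448 probes of which 17709 carry a single gene symbol. NUP98, RCC1 and IPO7 were not analysed here. Pore proteins account for 25 of the 37 and receptors with the Ran cycle for 12.

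The study treated OCI-AML3 cells, a human acute myeloid leukaemia line that its labels give as genotype wildtype, and measured total RNA on 18 arrays. The 3 groups of 6 arrays each had 24 h of RG7112 at 2 µM, of HDM201 at 500 nM, or of the solvent DMSO. Both compounds are labelled as inhibitors of MDM2, the ubiquitin ligase that holds p53 low, and each was given at a single dose. Values are normalised log2 signals, a change is a difference of group means on that scale given with its standard error (SE), and a gene "fell" or "rose" where limma's p, adjusted over all 21448 probes, lay under 0.05. Whether the replicates, labelled biological, came from separate cultures is not stated, so a p-value here reflects only their own spread, which may be technical, and n is 6 arrays per group unless stated.

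The nuclear pore complex is a ring-shaped channel through the nuclear envelope. A Y-shaped scaffold and an inner ring, held to the membrane by anchor proteins, support a channel filled with disordered protein chains, with filaments on the cytoplasmic face and a basket on the nuclear face. Importins and exportins carry proteins through it, and the GTPase Ran, loaded inside the nucleus and discharged outside, sets the direction of travel. In dividing cells the pores are taken apart and rebuilt at mitosis, and new pores are also inserted as the nucleus grows before division. OCI-AML3 is known for mutant NPM1, a nucleolar protein that the exportin XPO1 carries to the cytoplasm in such cells.

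Treatment and cell identity were checked on the same arrays. CDKN1A, the p53-induced inhibitor of the cell cycle, gave signals of 11.58, 12.23 and 12.74 with RG7112, 11.81, 12.36 and 12.82 with HDM201 and 7.27, 8.31 and 9.13 with DMSO (lowest, median and highest array), so that neither compound's arrays overlapped those of DMSO. Of the 5 measured myeloid markers, SPI1 (10.24 to 10.76 over all arrays), LYZ (12.35 to 13.13), CEBPA (9.76 to 10.42) and CSF3R (8.51 to 9.90) gave clear signals and MPO was dim (5.16 to 5.92); SPI1 rose with both compounds and CSF3R with HDM201. Of the lymphocyte markers CD3D and MS4A1 stayed between 3.55 and 4.25, close to the lowest signal of any probe per array (2.66 to 2.85), whereas CD8A lay at 4.58 to 5.18, CD3E at 4.48 to 5.82 and CD79A at 6.63 to 7.18. The erythroid HBA1 lay at 6.82 to 7.99 and HBB at 4.65 to 5.67, and no lymphocyte or erythroid marker passed in either comparison with DMSO. Among 5 markers of epithelium and fibroblasts COL1A2 lay at 7.96 to 8.96 and KRT8 at 7.53 to 8.84, both reaching into the range of CSF3R. COL1A1 lay at 6.24 to 7.17, KRT18 at 4.32 to 5.32 and EPCAM at 3.75 to 4.67. KRT8 rose with RG7112 (0.44, adjusted p = 0.0307) and EPCAM fell with HDM201 (-0.40, adjusted p = 0.00585). The part of such signals in the results was not tested. RG7112 replicate 3 stood apart. The interquartile range of its signals was 3.45 (3.70 to 3.91 for each other array), and it was the lowest RG7112 array for 22 of the 37 genes and the highest for 4. No such count over all probes is given, so these counts do not show a trait particular to the 37 genes. Replicates 1 to 3 also differed from replicates 4 to 6, with 2.14% of all probes passing between these sets among RG7112 arrays, 2.76% among HDM201 arrays and 0.303% among DMSO arrays. No label gives this split, which earlier results of these data had prompted. CDKN1A and MDM2, the 2 genes of the treatment check, rose with both compounds but were among the probes that passed between the sets of DMSO arrays. Their median change with RG7112 was 2.95 in replicates 1 to 3 and 3.59 in replicates 4 to 6. With HDM201 it was 2.97 in replicates 1 to 3 and 3.71 in replicates 4 to 6.

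Promoter sequence of the genes that the results turn on is shown first. The windows run from 250 bases before to 50 bases after the annotated start in RefSeq (GRCh38.p14), and 34 of the 37 genes matched an entry, with 44 windows in all. KPNA4, KPNB1 and NUP43 did not match. The letters searched, on both strands, were TTTGAA, the core of the CHR element found in many mitotic promoters, and TTCCCGC and TTGGCGC, cores of E2F sites. They are in capitals below. The windows of NUP205 (chr7:135557667-135557966, plus strand), NDC1 (chr1:53838247-53838546, minus strand), NUP107 (chr12:68686728-68687027, plus strand) and KPNA2 (chr17:68035485-68035784, plus strand) belong to genes that fell most in their class, and that of KPNA1 (chr3:122514890-122515189, minus strand) to the one gene that rose.
NUP205: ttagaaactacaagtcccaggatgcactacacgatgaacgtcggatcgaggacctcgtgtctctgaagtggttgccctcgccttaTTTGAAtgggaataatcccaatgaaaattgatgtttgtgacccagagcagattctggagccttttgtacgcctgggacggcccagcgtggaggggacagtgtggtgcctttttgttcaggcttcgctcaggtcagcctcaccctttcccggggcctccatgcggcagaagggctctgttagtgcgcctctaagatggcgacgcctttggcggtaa
NDC1: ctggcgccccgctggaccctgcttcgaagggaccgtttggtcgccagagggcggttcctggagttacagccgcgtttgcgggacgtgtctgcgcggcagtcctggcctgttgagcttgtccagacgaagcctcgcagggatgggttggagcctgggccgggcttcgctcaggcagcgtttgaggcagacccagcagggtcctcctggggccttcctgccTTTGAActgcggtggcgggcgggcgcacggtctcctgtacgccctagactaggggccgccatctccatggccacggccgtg
NUP107: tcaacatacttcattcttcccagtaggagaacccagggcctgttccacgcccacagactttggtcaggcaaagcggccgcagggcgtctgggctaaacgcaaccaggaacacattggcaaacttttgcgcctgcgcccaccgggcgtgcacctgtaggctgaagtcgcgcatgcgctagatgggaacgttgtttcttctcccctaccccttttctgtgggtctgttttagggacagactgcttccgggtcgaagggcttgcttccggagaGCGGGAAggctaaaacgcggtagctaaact
KPNA2: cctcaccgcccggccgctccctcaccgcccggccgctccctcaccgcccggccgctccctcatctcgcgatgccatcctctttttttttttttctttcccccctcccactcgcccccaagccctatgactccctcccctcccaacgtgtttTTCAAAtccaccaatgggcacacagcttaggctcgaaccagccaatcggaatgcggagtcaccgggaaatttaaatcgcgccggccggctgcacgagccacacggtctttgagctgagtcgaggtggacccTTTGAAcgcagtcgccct
KPNA1: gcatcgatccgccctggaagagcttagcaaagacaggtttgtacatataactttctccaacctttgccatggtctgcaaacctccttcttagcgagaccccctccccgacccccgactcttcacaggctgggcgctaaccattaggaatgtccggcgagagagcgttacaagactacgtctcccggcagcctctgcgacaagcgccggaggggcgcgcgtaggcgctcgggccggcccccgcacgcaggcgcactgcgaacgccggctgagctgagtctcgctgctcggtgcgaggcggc

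The TTTGAA letters begin 165 bases before the start in NUP205, 31 bases before it in NDC1, and in KPNA2 99 bases before it on the reverse strand and at position 33 after it. NUP107 has TTCCCGC on the reverse strand at position 21 after its start, and none of the 3 words lies in the KPNA1 window. The words are also absent from the windows of NUP88, IPO9, AAAS, NUP133, NUP188 and SEH1L, all of which fell with both compounds. Of these, NUP88 fell most in its class with both compounds and IPO9 with RG7112, so the windows shown do not separate fallen genes from KPNA1. Over the whole group, 12 of 44 windows (27.3%) held TTTGAA, against 12.4% of 20090 windows of measured genes and 15.2% of all 35116 windows in the table. For either E2F core the counts were 10 of 44 (22.7%), against 11.6% of windows of measured genes and 9.23% of all windows. Genes that fell with both compounds had TTTGAA in 11 of 29 windows (37.9%) and an E2F core in 9 (31.0%). Some genes have several windows, and those of NUP160 overlap and share a TTCCCGC site that is counted in both. No share for the windows of all genes that fell is given here. A match describes letters, not binding.

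Setting RG7112 against DMSO shows how these transcripts differ after MDM2 inhibition. Transcripts for most of the pore and its receptors were lower: 26 of 37 genes (70.3%) fell, 1 rose and 10 did not pass, while 9.61% of all probes fell and 7.9% rose. The median change was -0.47, against 0.03 over all probes, and 36 of the 37 differences were negative. All 6 RG7112 arrays lay below all 6 DMSO arrays for 20 genes, which holds for 5.61% of all probes, no gene had all 6 above (4.29% of all probes), and for 17 genes the arrays overlapped. Without RG7112 replicate 3 the counts were 28 that fell and 1 that rose, with 16.5% of all probes called in either direction against 17.5% on all arrays.

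With HDM201, against the same DMSO arrays, 27 of 37 genes (73.0%) fell, 1 rose and 9 did not pass, while 9.64% of all probes fell and 9.16% rose. The median change was -0.48, against 0.02 over all probes, and 35 of 37 differences were negative. Every HDM201 array lay below every DMSO array for 27 genes (6.92% of all probes), every one lay above for 1 gene (6.63% of all probes), and 9 genes overlapped. Without RG7112 replicate 3, which also enters the shared estimate of spread, 30 genes fell with HDM201 and 1 rose, while the share of all probes called in either direction was 24.3%, against 18.8% on all arrays. The gene that rose was KPNA1 with either compound.

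**Figure D1:**
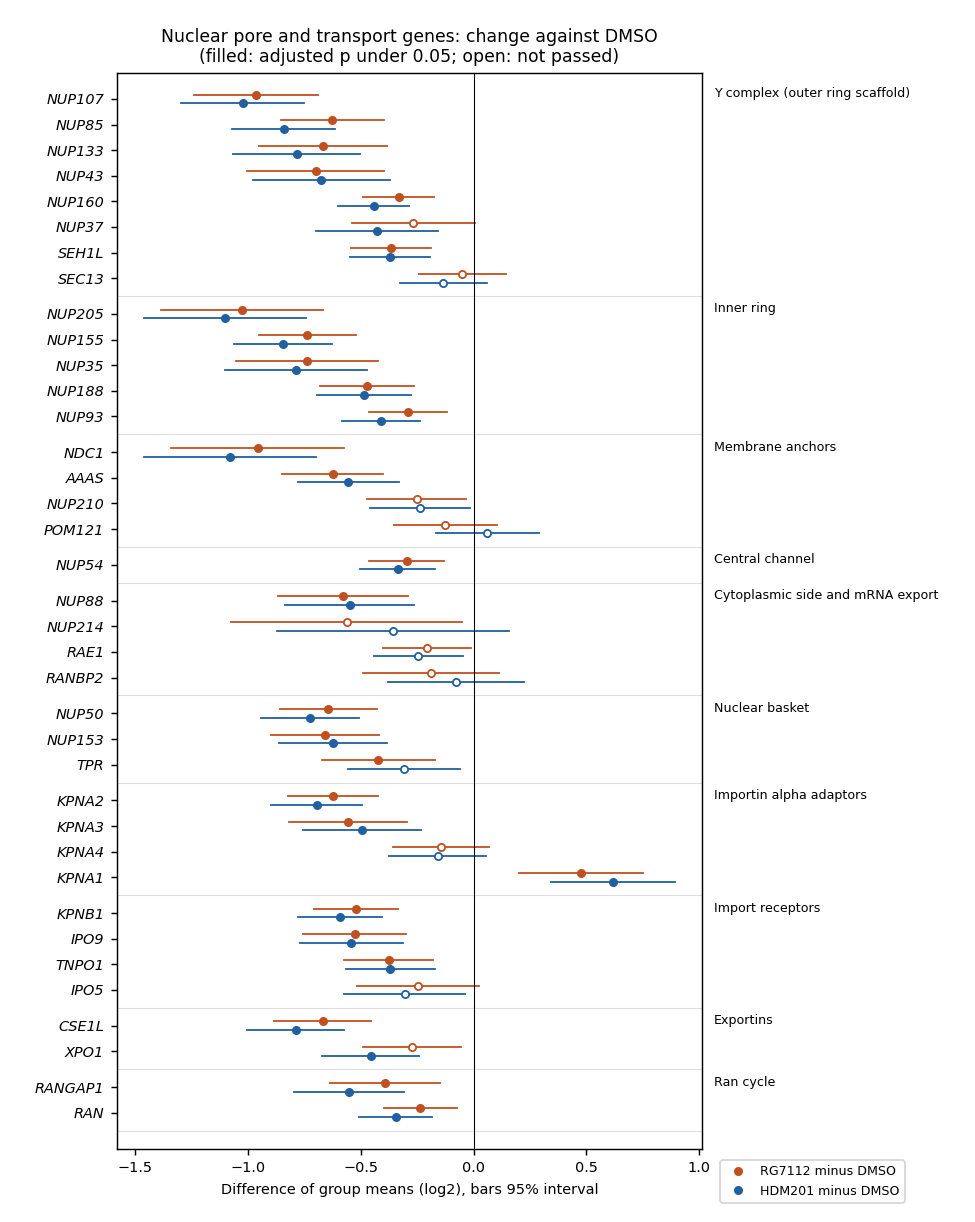
Difference of group means against DMSO (x axis, log2) for the 37 genes (rows, by role), for RG7112 (orange, upper point) and HDM201 (blue, lower point), with 95% intervals and filled points for adjusted p under 0.05. Points reach -1.03 with RG7112 and -1.10 with HDM201 for NUP205, and KPNA1 stands alone to the right.

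The Y complex, the outer scaffold, has 8 genes here, of which 6 fell with RG7112 and 7 with HDM201, with median changes of -0.49 and -0.56. Counts of this class and of those below stand beside 9.61% of all probes that fell with RG7112 and 9.64% with HDM201. NUP107, a stem protein of the Y, gave signals of 6.79, 7.33 and 7.44 with RG7112, 6.87, 7.08 and 7.37 with HDM201 and 7.94, 8.12 and 8.49 with DMSO (lowest, median and highest array). Both compounds' arrays lay wholly below the DMSO arrays, and the changes were -0.96 ± 0.13 with RG7112 (adjusted p = 2.14e-05) and -1.02 ± 0.13 with HDM201 (adjusted p = 6.53e-06). NUP85, in an arm of the Y, gave 8.26, 8.46 and 8.70 with RG7112, 7.85, 8.34 and 8.48 with HDM201 and 8.94, 9.08 and 9.27 with DMSO, again without overlap with DMSO. Its changes were -0.63 ± 0.11 with RG7112 (adjusted p = 0.000328) and -0.84 ± 0.11 with HDM201 (adjusted p = 8.11e-06).

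NUP133, at the tip of the stem, gave 6.10, 6.37 and 6.70 with RG7112, 6.03, 6.20 and 6.58 with HDM201 and 6.69, 7.07 and 7.35 with DMSO. RG7112 arrays touched the lowest DMSO array while HDM201 arrays lay below it, and the changes were -0.67 ± 0.14 with RG7112 (adjusted p = 0.0014) and -0.78 ± 0.14 with HDM201 (adjusted p = 0.000218). NUP43, a propeller-shaped subunit, gave 7.81, 8.67 and 8.79 with RG7112, 8.26, 8.56 and 8.93 with HDM201 and 8.92, 9.29 and 9.35 with DMSO. RG7112 arrays lay below the DMSO arrays, with replicate 3 far below the others, and HDM201 arrays touched the lowest DMSO array. NUP43 changed by -0.70 ± 0.15 with RG7112 (adjusted p = 0.0017) and -0.67 ± 0.15 with HDM201 (adjusted p = 0.00186). NUP160 fell by less (-0.33 with RG7112 and -0.44 with HDM201), as did SEH1L (-0.36 with RG7112 and -0.37 with HDM201). NUP37 passed with HDM201 but not with RG7112, with differences of -0.27 with RG7112 (adjusted p = 0.173) and -0.43 with HDM201 (adjusted p = 0.0235). It passed with RG7112 when replicate 3 of that group was left out (-0.37, adjusted p = 0.0224), and missed the threshold with HDM201 without DMSO replicate 2, DMSO replicate 3 or HDM201 replicate 1 (adjusted p of 0.0597 to 0.0672). SEC13, which also coats vesicles leaving the endoplasmic reticulum, differed by -0.05 with RG7112 (adjusted p = 0.758) and -0.13 with HDM201 (adjusted p = 0.377) and did not pass. Its difference with RG7112 lay at 0.0071 after a further quantile normalisation and at 0.0019 without DMSO replicate 4.

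All 5 inner ring genes fell with both compounds, with median changes of -0.74 with RG7112 and -0.79 with HDM201. NUP205, a large scaffold protein of this ring, gave 6.40, 7.48 and 7.67 with RG7112, 6.87, 7.22 and 7.42 with HDM201 and 8.02, 8.30 and 8.53 with DMSO, so neither compound's arrays overlapped those of DMSO. Its changes were the largest among the 37 genes, a 2.04-fold fall with RG7112 and a 2.15-fold fall with HDM201. On the log2 scale they were -1.03 ± 0.17 with RG7112 (adjusted p = 0.000212) and -1.10 ± 0.17 with HDM201 (adjusted p = 6.93e-05). Within the sets, NUP205 changed with RG7112 by -1.31 in replicates 1 to 3 and -0.74 in replicates 4 to 6, and with HDM201 by -1.27 in replicates 1 to 3 and -0.93 in replicates 4 to 6.

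NUP155, which links the ring to the membrane, gave 9.42, 9.62 and 9.98 with RG7112, 9.31, 9.49 and 9.85 with HDM201 and 10.18, 10.39 and 10.52 with DMSO, with no treated array in the DMSO range. The changes were -0.74 ± 0.10 with RG7112 (adjusted p = 3.45e-05) and -0.84 ± 0.10 with HDM201 (adjusted p = 3.98e-06). NUP35, a small membrane-binding protein of the ring, gave 7.12, 7.83 and 8.02 with RG7112, 7.25, 7.58 and 7.99 with HDM201 and 8.17, 8.44 and 8.60 with DMSO, and every treated array lay below every DMSO array. NUP35 changed by -0.74 ± 0.15 with RG7112 (adjusted p = 0.00149) and -0.79 ± 0.15 with HDM201 (adjusted p = 0.000618). NUP188, the partner of NUP93, fell by a middling amount (-0.47 with RG7112 and -0.48 with HDM201). NUP93 fell least of the 5, with differences of -0.29 with RG7112 (adjusted p = 0.019) and -0.41 with HDM201 (adjusted p = 0.00112).

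**Figure D2:**
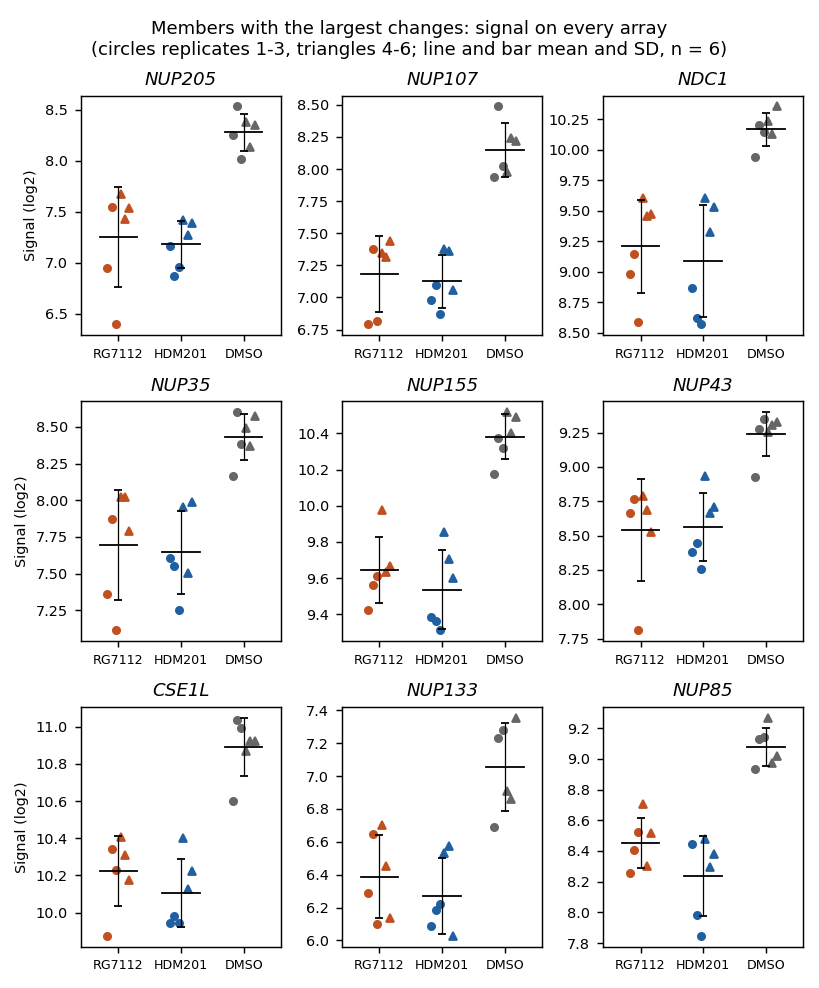
Log2 signal (y axis, scaled per panel) on every array for the 9 genes with the largest changes, in RG7112, HDM201 and DMSO arrays from left to right. Circles are replicates 1 to 3 and triangles replicates 4 to 6, lines are means and bars SD (n = 6), and DMSO arrays stand above the treated arrays in each panel except for contact in NUP43 and NUP133.

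Of the 4 genes classed with the membrane anchors, AAAS among them as a protein held by an anchor, NDC1 and AAAS fell with both compounds. NUP210 and POM121 did not pass with either. NDC1, an anchor that spans the membrane, gave 8.59, 9.30 and 9.61 with RG7112, 8.57, 9.10 and 9.60 with HDM201 and 9.94, 10.17 and 10.35 with DMSO, so no treated array reached a DMSO array. It changed by -0.96 ± 0.18 with RG7112 (adjusted p = 0.000794) and -1.08 ± 0.18 with HDM201 (adjusted p = 0.000173). Its fall was larger in replicates 1 to 3: with RG7112 it was -1.19 in replicates 1 to 3 and -0.73 in replicates 4 to 6, and with HDM201 -1.41 in replicates 1 to 3 and -0.75 in replicates 4 to 6. The difference between the sets' changes had adjusted p = 0.798 with RG7112 and 0.373 with HDM201 in limma. AAAS, the protein ALADIN that NDC1 holds at the pore, fell (-0.62 with RG7112 and -0.55 with HDM201). NUP210 differed by -0.25 with RG7112 (adjusted p = 0.109) and -0.24 with HDM201 (adjusted p = 0.136), and with RG7112 it passed without RG7112 replicate 4 (adjusted p = 0.0374). POM121 differed by -0.13 with RG7112 (adjusted p = 0.475) and 0.06 with HDM201 (adjusted p = 0.783). It has a near-identical copy, POM121C, whose probe differed by -0.04 with RG7112 (adjusted p = 0.852) and 0.07 with HDM201 (adjusted p = 0.733), and how far the probes tell the copies apart is not known here.

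NUP54, whose disordered chains fill the central channel, gave 8.15, 8.45 and 8.67 with RG7112, 8.27, 8.42 and 8.49 with HDM201 and 8.65, 8.73 and 8.80 with DMSO. RG7112 arrays overlapped the DMSO arrays slightly and HDM201 arrays lay below them. The changes were -0.30 ± 0.08 with RG7112 (adjusted p = 0.0114) and -0.34 ± 0.08 with HDM201 (adjusted p = 0.00378).

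On the cytoplasmic side 1 of 4 measured genes fell. NUP88, the partner of NUP214, gave 7.61, 8.49 and 8.70 with RG7112, 8.20, 8.40 and 8.59 with HDM201 and 8.85, 8.94 and 9.09 with DMSO, below DMSO on every treated array. NUP88 changed by -0.58 ± 0.14 with RG7112 (adjusted p = 0.00516) and -0.55 ± 0.14 with HDM201 (adjusted p = 0.0064). NUP214, which helps release exported mRNA, gave 7.96, 9.90 and 10.11 with RG7112, 9.69, 9.84 and 9.97 with HDM201 and 10.04, 10.20 and 10.25 with DMSO, and its RG7112 low of 7.96 was replicate 3, with 9.79 to 10.11 on the others. It differed by -0.56 with RG7112 (adjusted p = 0.125) and -0.36 with HDM201 (adjusted p = 0.379). Without RG7112 replicate 3 the difference with RG7112 was -0.23, adjusted p = 0.0597, and that with HDM201, where all 6 arrays lay below DMSO, passed (-0.36, adjusted p = 0.00168). RANBP2, the largest protein of the cytoplasmic filaments, differed by -0.19 with RG7112 (adjusted p = 0.409) and -0.08 with HDM201 (adjusted p = 0.793). Copies of its gene in the RGPD family share sequence with it, so its signal may be mixed. RAE1, an mRNA export factor, differed by -0.21 with RG7112 (adjusted p = 0.144) and -0.24 with HDM201 (adjusted p = 0.0779), and with HDM201 it passed without RG7112 replicate 3 (-0.24, adjusted p = 0.0281).

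All 3 basket genes fell with RG7112, and NUP153 and NUP50 fell with HDM201. NUP153, a mobile basket protein, gave 9.17, 9.92 and 10.07 with RG7112, 9.73, 9.89 and 9.97 with HDM201 and 10.38, 10.51 and 10.53 with DMSO. No treated array reached the DMSO range, and the changes were -0.66 ± 0.11 with RG7112 (adjusted p = 0.000328) and -0.62 ± 0.11 with HDM201 (adjusted p = 0.000437). NUP50, which helps take cargo off importin alpha, gave 9.35, 9.88 and 10.06 with RG7112, 9.52, 9.73 and 9.86 with HDM201 and 10.33, 10.47 and 10.54 with DMSO. It too was lower on every treated array, with changes of -0.64 ± 0.10 with RG7112 (adjusted p = 0.000141) and -0.72 ± 0.10 with HDM201 (adjusted p = 2.54e-05). TPR, the coiled-coil rod of the basket, differed by -0.42 with RG7112 (adjusted p = 0.0172) and -0.31 with HDM201 (adjusted p = 0.0797). Every array of either compound lay below every DMSO array for TPR, and without RG7112 replicate 3 it passed with HDM201 as well (-0.31, adjusted p = 0.00154).

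Importin alpha proteins bind the nuclear localisation signal of cargo, and their genes moved in both directions. KPNA2 and KPNA3 fell, KPNA1 rose and KPNA4 did not pass, with either compound. KPNA2, the family member best known from dividing cells, gave 11.22, 11.62 and 11.88 with RG7112, 11.27, 11.53 and 11.68 with HDM201 and 12.06, 12.22 and 12.31 with DMSO. Its treated arrays all lay below the DMSO arrays, and it changed by -0.62 ± 0.10 with RG7112 (adjusted p = 9.23e-05) and -0.69 ± 0.10 with HDM201 (adjusted p = 1.81e-05). KPNA1 gave 9.30, 9.74 and 10.14 with RG7112, 9.57, 9.82 and 10.20 with HDM201 and 9.04, 9.30 and 9.46 with DMSO. HDM201 arrays all lay above the DMSO arrays and RG7112 arrays overlapped them. The changes of KPNA1, described here because it alone rose, were 0.48 ± 0.13 with RG7112 (adjusted p = 0.0149) and 0.62 ± 0.13 with HDM201 (adjusted p = 0.00166), or 1.39-fold and 1.54-fold higher than in DMSO. Within the sets they were 0.56 in replicates 1 to 3 and 0.39 in replicates 4 to 6 with RG7112, and 0.72 in replicates 1 to 3 and 0.52 in replicates 4 to 6 with HDM201. KPNA3 fell (-0.56 with RG7112 and -0.49 with HDM201), and KPNA4 differed by -0.14 with RG7112 (adjusted p = 0.362) and -0.16 with HDM201 (adjusted p = 0.339).

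**Figure D3:**
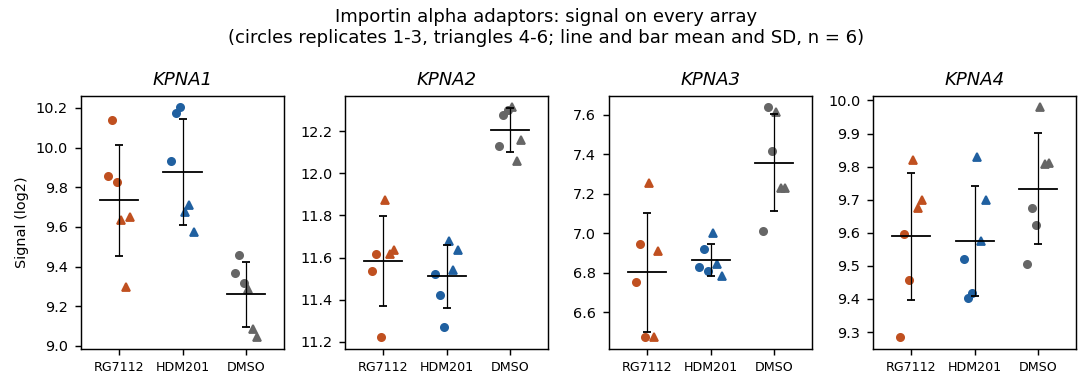
Log2 signal (y axis, scaled per panel) on every array for the 4 importin alpha genes, in RG7112, HDM201 and DMSO arrays from left to right, with circles for replicates 1 to 3, triangles for 4 to 6, and mean with SD (n = 6). Treated means are higher than the DMSO mean for KPNA1 and lower for KPNA2 and KPNA3, with RG7112 arrays overlapping DMSO for KPNA1 and KPNA3, and KPNA4 overlaps throughout.

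Of the import receptors, KPNB1, IPO9 and TNPO1 fell with both compounds and IPO5 did not pass with either. KPNB1, importin beta, which pairs with the alpha adaptors, gave 10.89, 11.07 and 11.36 with RG7112, 10.83, 11.02 and 11.24 with HDM201 and 11.43, 11.62 and 11.73 with DMSO. Neither compound's arrays overlapped those of DMSO, and KPNB1 changed by -0.52 ± 0.09 with RG7112 (adjusted p = 0.000269) and -0.59 ± 0.09 with HDM201 (adjusted p = 4.83e-05). IPO9, a carrier of histones and actin, gave 10.15, 10.86 and 10.97 with RG7112, 10.52, 10.76 and 10.87 with HDM201 and 11.21, 11.28 and 11.33 with DMSO, also without overlap with DMSO. IPO9 changed by -0.53 ± 0.11 with RG7112 (adjusted p = 0.0017) and -0.54 ± 0.11 with HDM201 (adjusted p = 0.00101). TNPO1, which carries RNA-binding proteins, fell (-0.38 with RG7112 and -0.37 with HDM201). IPO5, a carrier of ribosomal proteins and histones, differed by -0.25 with RG7112 (adjusted p = 0.204) and -0.30 with HDM201 (adjusted p = 0.114).

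CSE1L, the exportin that returns importin alpha to the cytoplasm, gave 9.87, 10.27 and 10.41 with RG7112, 9.94, 10.06 and 10.40 with HDM201 and 10.60, 10.92 and 11.03 with DMSO. All treated arrays lay below all DMSO arrays, and CSE1L changed by -0.67 ± 0.10 with RG7112 (adjusted p = 8.4e-05) and -0.79 ± 0.10 with HDM201 (adjusted p = 8.23e-06). XPO1, the general exportin for proteins with leucine-rich export signals, gave 9.59, 9.89 and 10.35 with RG7112, 9.51, 9.73 and 9.90 with HDM201 and 10.07, 10.17 and 10.29 with DMSO. HDM201 arrays lay below the DMSO range and RG7112 arrays reached into it, with changes of -0.27 ± 0.10 with RG7112 (adjusted p = 0.0767) and -0.46 ± 0.10 with HDM201 (adjusted p = 0.00299). Without RG7112 replicate 3, the highest XPO1 array of its group, XPO1 passed with RG7112 as well (-0.36, adjusted p = 0.00407). NPM1, the cargo noted above and not on the list, differed by -0.09 with RG7112 (adjusted p = 0.364) and -0.14 with HDM201 (adjusted p = 0.154), and whether its probe tells the mutant from the normal transcript is not known here.

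RANGAP1, which makes Ran hydrolyse GTP at the cytoplasmic face, gave 8.65, 8.81 and 9.24 with RG7112, 8.43, 8.69 and 9.00 with HDM201 and 8.94, 9.27 and 9.52 with DMSO. Both compounds' arrays overlapped the DMSO arrays. The changes were -0.39 ± 0.12 with RG7112 (adjusted p = 0.0247) and -0.55 ± 0.12 with HDM201 (adjusted p = 0.00172), and without any one of 5 arrays (DMSO replicates 2, 3 and 4, RG7112 replicates 2 and 5) the call with RG7112 was lost (adjusted p of 0.0522 to 0.0674). RAN itself fell, with changes of -0.23 with RG7112 (adjusted p = 0.0396) and -0.34 with HDM201 (adjusted p = 0.00258). Its call with RG7112 was lost without any one of 9 arrays (DMSO replicates 2 to 6, RG7112 replicates 1, 2, 5 and 6; adjusted p of 0.0535 to 0.0877).

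The direct comparison of HDM201 with RG7112 asks whether the compounds differ, at doses that are not matched. None of the 37 genes passed with limma, and 0 had an unadjusted p under 0.05. Over all 21448 probes 0 passed (0%), with 749 (3.49%) at an unadjusted p under 0.05. HDM201 and RG7112 arrays overlapped for all 37 genes, while 0.042% of all probes had every HDM201 array lower and 0.042% every one higher. The lowest and highest differences, named after their values were seen, were -0.21 for NUP85 (95% interval -0.44 to 0.01) and 0.21 for NUP214 (-0.31 to 0.72). For NUP214 the sign turned without RG7112 replicate 3, to -0.13. For 35 of the 37 genes the interval lay within 0.5 of 0 in either direction, and the median distance from the difference to either bound was 0.227. A missed threshold does not show that the compounds act alike.

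Changes were compared between replicates 1 to 3 and replicates 4 to 6, since earlier results of these data had shown these sets apart. The labels give no such sets, so a p-value between them tests a split drawn from the same values. The median change with RG7112 was -0.58 in replicates 1 to 3 and -0.36 in replicates 4 to 6, and with HDM201 it was -0.56 and -0.42. The fall was the larger in replicates 1 to 3 for 24 of 26 genes that fell with RG7112, against 82.4% of all probes that fell. With HDM201 this held for 26 of 27, against 85.3%. The difference of the changes passed for 0 of 37 genes with either compound in limma, and for 8 (0.0373%) and 32 (0.149%) of all probes. In simulated data this test with RG7112 found 53% of differences of 1 and 98% of differences of 2. The simulated noise was independent on every array, with no outlying array, whereas real arrays of equal number deviated together. Those rates may therefore not hold here, and differences under 1 were not simulated. Such differences can be missed, and 0 of 37 does not show that the sets changed alike. At an unadjusted p under 0.05 there were 2 of 37 for each compound, against 6.1% and 6.13% of all probes. Between the sets of DMSO arrays alone 0 of the 37 passed, against 0.303% of all probes, and 2 had an unadjusted p under 0.05, against 5.86%. The gaps between the sets were wide for some genes that fell. RANGAP1 changed with RG7112 by -0.61 in replicates 1 to 3 and -0.17 in replicates 4 to 6, and with HDM201 by -0.76 in replicates 1 to 3 and -0.34 in replicates 4 to 6. NUP160 changed with RG7112 by -0.48 in replicates 1 to 3 and -0.18 in replicates 4 to 6, and NUP37 with HDM201 by -0.64 in replicates 1 to 3 and -0.22 in replicates 4 to 6. These 3 genes were picked after their values were seen.

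Within the treated groups some levels differed between the sets, a split that these same data had prompted. Among RG7112 arrays NDC1 (-0.61, adjusted p = 0.0272), IPO5 (-0.46, adjusted p = 0.0378) and NUP210 (-0.42, adjusted p = 0.0427) were lower in replicates 1 to 3 than in replicates 4 to 6, and among HDM201 arrays NDC1 was (-0.80, adjusted p = 0.00305). Tests within 1 set have 3 arrays per group. In replicates 1 to 3, 18 genes fell and 1 rose with RG7112 (9.2% of all probes called in either direction), and 19 fell and 1 rose with HDM201 (11.7%). In replicates 4 to 6, 15 fell and 0 rose with RG7112 (10.0%), and 19 fell and 1 rose with HDM201 (12.1%). With the set as a covariate over all arrays, 28 fell and 1 rose with RG7112 (20.8%), and 29 fell and 1 rose with HDM201 (21.3%). The further genes that passed in that fit were IPO5 (adjusted p = 0.0248 with RG7112 and 0.00529 with HDM201) and NUP210 (0.0237 and 0.031).

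**Figure D4:**
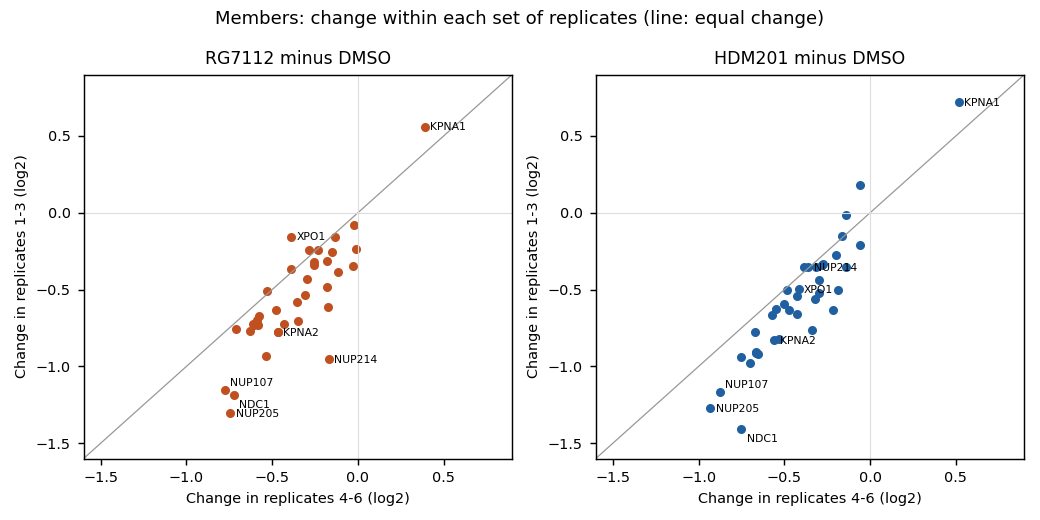
Change against DMSO in replicates 1 to 3 (y axis, log2) against the change in replicates 4 to 6 (x axis, log2), 1 point per gene, for RG7112 (left) and HDM201 (right), n = 3 arrays per group and set, with the line of equal change. Most points lie below the line, with NDC1, NUP107 and NUP205 lowest, and KPNA1 is at the upper right.

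Other genes of the same pathway and of the nuclear envelope were counted from lists written out in full. Of 34 measured genes of nuclear transport outside the group, 12 fell and 2 rose with RG7112, with a median of -0.24, beside 9.61% of all probes that fell and 7.9% that rose. With HDM201 10 fell and 2 rose, with a median of -0.22, beside 9.64% and 9.16% of all probes. The count that fell with HDM201 was 16 without RG7112 replicate 3, and 6 without HDM201 replicate 2 or HDM201 replicate 3. RANBP1, a cofactor of RANGAP1, gave 9.35, 9.65 and 10.02 with RG7112, 9.10, 9.43 and 9.86 with HDM201 and 9.95, 10.42 and 10.56 with DMSO. The DMSO arrays overlapped, at their low end, those of RG7112 but not of HDM201, and RANBP1 changed by -0.69 ± 0.14 with RG7112 (adjusted p = 0.00104) and -0.89 ± 0.14 with HDM201 (adjusted p = 6.05e-05). NXT1, a partner of the mRNA exporter, fell (-0.53 with RG7112 and -0.50 with HDM201), and ALYREF, an adaptor of mRNA export, fell too (-0.39 with RG7112 and -0.44 with HDM201). The tRNA exportin XPOT passed with HDM201 only, with differences of -0.30 with RG7112 (adjusted p = 0.0641) and -0.53 with HDM201 (adjusted p = 0.00127). It passed with RG7112 when DMSO replicate 1, HDM201 replicate 4 or RG7112 replicate 3 was left out (adjusted p of 0.00877 to 0.0402). NUP58, a channel protein, and THOC1, of an mRNA export complex, passed with RG7112 only. NUP58 differed by -0.51 with RG7112 (adjusted p = 0.046) and -0.48 with HDM201 (adjusted p = 0.0589) before any array was left out. Its call with RG7112 was lost without DMSO replicate 4, 5 or 6, RG7112 replicate 1, 2 or 3, or HDM201 replicate 2 or 6 (adjusted p of 0.0527 to 0.11), and passed with HDM201 without DMSO replicate 1, RG7112 replicate 3 or 5, or HDM201 replicate 4 or 5 (adjusted p of 0.018 to 0.04998). THOC1 differed by -0.49 with RG7112 (adjusted p = 0.0153) and -0.38 with HDM201 (adjusted p = 0.0567), and passed with HDM201 without RG7112 replicate 2 or 3 (adjusted p of 0.00738 to 0.0286).

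Of 15 measured genes of the lamina and inner nuclear membrane 5 fell and 1 rose with RG7112, and 5 fell and 2 rose with HDM201, against the same shares of all probes. The list's median changes were -0.10 with RG7112 and -0.05 with HDM201, and the other 9 and 8 genes did not pass. Both directions occurred among the lamins. LMNB1, a B-type lamin, fell (-0.73 with RG7112 and -0.93 with HDM201), and LMNA, which encodes the A-type lamins, rose (0.65 with RG7112 and 0.68 with HDM201). TMPO, which binds lamins and chromatin, fell (-0.86 with RG7112 and -0.99 with HDM201). LBR, the lamin B receptor, fell (-0.50 with RG7112 and -0.60 with HDM201). BANF1, which ties chromatin to the envelope, fell (-0.51 with RG7112 and -0.57 with HDM201).

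Genes of proliferation were lower as well. Of 20 genes for replication and mitosis 19 fell with either compound, with median changes of -1.24 with RG7112 and -1.45 with HDM201. Over all probes 9.61% fell with RG7112 and 9.64% with HDM201. The exception was PCNA, itself a p53 target, which differed by 0.14 with RG7112 (adjusted p = 0.398) and 0.14 with HDM201 (adjusted p = 0.407). The part of a lower share of dividing cells in the changes of the pore genes was not tested, and in bulk RNA fewer cells that express a gene and less RNA per cell cannot be told apart.

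**Figure D5:**
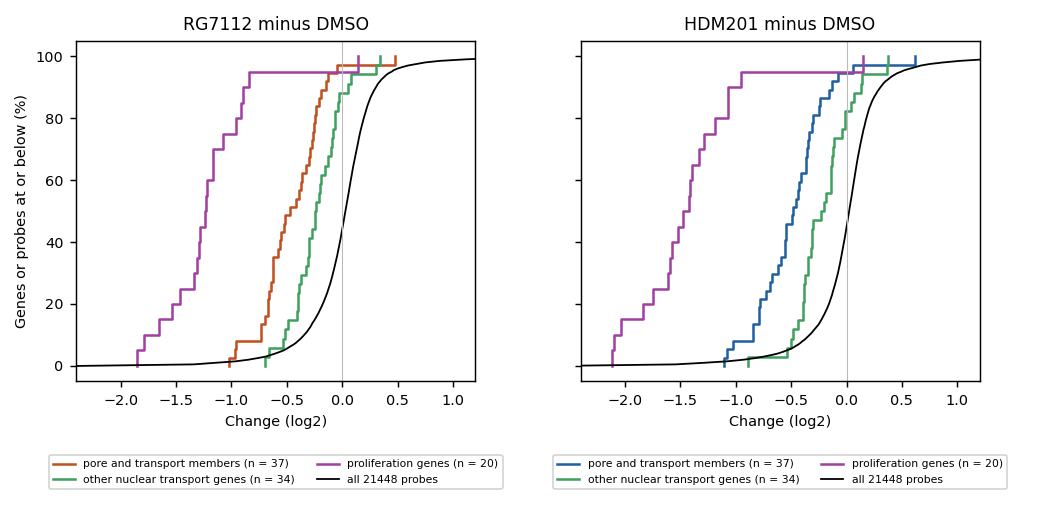
Cumulative share of genes or probes (y axis, %) at or below each change against DMSO (x axis, log2), for RG7112 (left) and HDM201 (right). Curves are the 37 pore and transport genes, 34 other transport genes, 20 proliferation genes and all 21448 probes, with medians of -0.47, -0.24, -1.24 and 0.03 for RG7112 and -0.48, -0.22, -1.45 and 0.02 for HDM201.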

How the data were processed

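Per the submitters' processing notes, the authors used oligo and RMA, and the deposited values are log2 signals. RMA subtracts background, brings all arrays to one distribution and sums up each probe set. The tool versions, array design and build: not given in the sources used here. A platform annotation table gave 17709 of 21448 probes 1 symbol and 3739 none, and the 17709 cover 17687 symbols. All 18 columns and all probes were used. Groups come from the labels. The gene members, the lists, the motifs and the rule for naming genes were chosen with earlier results of these data known.

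The tests used limma 3.58.1 (R 4.3.3). One linear model over the 18 arrays gave each group its mean, variances were moderated with eBayes at its defaults, and p-values were adjusted over all probes by Benjamini-Hochberg (threshold 0.05, intervals at 95%). A second fit had a mean per group and replicate set. The test between the sets within each group was added after the data were seen. The fit was tested on simulated data. By the rule, the 8 called genes with the largest change per comparison with DMSO and the largest change of each role are given over every array, and up to 4 called genes of each further list are named. The number of arrays limits the precision: the SE of a gene's change ran from 0.0756 to 0.246. Alternatives covered the prior, array weights, dim probes, probes without a symbol, scaling, the arrays in the fit, the replicate number and each array left out. Several probes of a symbol were also averaged, although no gene of the group has more than 1 probe.

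Arrays of equal number deviated together from their group means with a correlation over 0.1 in 16 of 18 pairs. The lowest, 0.0168, was that of RG7112 and DMSO replicate 3. Of 18 arrays, 13 deviated most like the arrays of their own number in the other groups. The labels do not say what arrays of equal number share, so the main fit did not pair them. A fit with the number as a block is given below. Between the compounds all 6 pairs had a correlation over 0.1.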

Additional observations from a re-analysis of the deposited data

Results flagged for a closer look

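A single array stood apart from its own group for 10 of the 111 combinations of gene and group. Chance flags about 1 in 20 combinations. Of the 10 flagged, 7 concern RG7112 replicate 3 and 3 concern DMSO replicate 1. The combinations share the same arrays and are not independent, and no count over all probes is given here. The chance rate therefore cannot show whether such arrays are more frequent among these genes than elsewhere. RG7112 replicate 3 gave 7.96 for NUP214 (9.79 to 10.11 on the other RG7112 arrays) and 7.53 for RANBP2 (8.42 to 8.75), both of the cytoplasmic side. It gave 9.21 for TPR (9.93 to 10.18) and 9.17 for NUP153 (9.87 to 10.07), both of the basket. It also gave 7.81 for NUP43 (8.53 to 8.79), 10.23 for POM121 (10.80 to 11.07) and 10.15 for the import receptor IPO9 (10.74 to 10.97). DMSO replicate 1 gave 8.92 for NUP43 (9.25 to 9.35 on the other DMSO arrays), 10.04 for NUP214 (10.20 to 10.25) and 10.60 for the exportin CSE1L (10.87 to 11.03). In every case the array was the lowest of its group.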

How the results depend on the processing

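Over 29 settings that kept both replicate sets, 2094 of 2146 values of the 37 genes (2 comparisons with DMSO) kept their direction and their side of the threshold, 21 lost the call, 29 gained it and 2 turned their sign. In many of these settings the difference could not change, so the count says little about direction. Those were the prior, the probe filters, averaged probes, only the compared arrays and the replicate number or set in the fit. Leaving out an array of the third group also left the difference as it was. With each array left out in turn, 24 to 28 genes fell with RG7112 and 26 to 30 with HDM201. Over all probes, the number called in either direction ran from 3074 to 4085 with RG7112 and from 3374 to 5212 with HDM201. With no array left out it was 3757 with RG7112 and 4032 with HDM201. Array weights gave 28 genes that fell with RG7112 and 32 with HDM201 (3961 and 5555 probes called). Fits of only the 12 arrays compared gave 26 and 31 (3164 and 5134 probes called). A further quantile normalisation gave 23 and 26 (3703 and 4101 probes called). With the replicate number as a block 28 fell with RG7112 and 30 with HDM201, 29 and 31 were called in all, 0 were called between the compounds, and 4780 and 4866 probes were called over the table; the block moved no count by over 1.5 times, but IPO5 (adjusted p = 0.0184 with RG7112 and 0.00408 with HDM201) and NUP210 (0.0289 and 0.0373) passed in it, as did TPR (0.038) with HDM201. Other lists moved more. Of the further transport genes, 17 fell with HDM201 under array weights, 16 without RG7112 replicate 3, and 6 without HDM201 replicate 2 or replicate 3 (range 6 to 16 over single arrays left out). With replicates 1 to 3 only, 1973 probes were called and 2 further transport genes fell with RG7112, and 2504 and 6 with HDM201. With replicates 4 to 6 only, 15 of the 37 genes were called with RG7112 (15 fell, 0 rose), with 2148 probes called and 5 further transport genes that fell, and with HDM201 the last counts were 2595 and 5. These fits have 3 arrays per group. HDM201 against RG7112 gave 0 called probes, or 1 without HDM201 replicate 6 (range 0 to 1). Between the compounds 25 of the 37 differences were negative as deposited, 22 after subtraction of array medians and 28 after a further quantile normalisation, so uncalled signs turned there too. Single differences were recomputed for all 37 genes against DMSO but only for NUP85 and NUP214 between the compounds, and signs turned as follows. NUP214 between HDM201 and RG7112 lay at -0.10 with array weights, -0.19 in replicates 4 to 6 and -0.13 without RG7112 replicate 3 (-0.13 to 0.30 over single arrays left out). SEC13 with RG7112 lay at 0.0071 after a further quantile normalisation and 0.0019 without DMSO replicate 4 (-0.11 to 0.0019 over single arrays left out), and POM121 with HDM201 at -0.057 in replicates 4 to 6. The share of higher probes among the calls with RG7112 was 45.1% as deposited and 33.2% after subtraction of array medians, and 36 of the 37 differences were negative under both. After a further quantile normalisation NUP93 (adjusted p = 0.051), RAN (0.158) and RANGAP1 (0.0519) lost their calls with RG7112, and NUP37 (0.0538) its call with HDM201. The cause of these shifts was not tested.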
